A study of Homo sapiens with 12 samples.

Results

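The change that givinostat made in sorafenib-treated L-540 cells was measured as the difference between the cells given both drugs and the cells given sorafenib alone. It was followed over 7629 of the 8079 genes tested in the series. A gene was taken when its probe was detected, with a detection score above 0.95, on all 3 arrays of either group. Of the 7629 genes, 6849 met this in the combination, 7433 in sorafenib and 6653 in both. The lowest scores that let a gene in were 0.951, for AIG1, ATG2B and CERCAM, with log2 differences of 0.55, 0.10 and 0.14. Just outside, at 0.95, lay FCRLB, MS4A6E and RIGI, with 0.37, 1.79 and 0.12.

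L-540 is an established Hodgkin lymphoma cell line, and all 12 arrays of the series carry RNA from it. The sorafenib group received 5 µM sorafenib and the combination group received 5 µM sorafenib together with 100 nM givinostat, both for 24 hours. A control group with no drug and a group with 100 nM givinostat alone, also at 24 hours, were used to set the same genes beside their values without sorafenib. Each group has 3 arrays, lettered A, B and C. The labels do not say whether the letters mark separate cultures, so every p-value reflects the spread between these samples alone, and that spread may be technical.

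Givinostat inhibits histone deacetylases, the enzymes that take acetyl groups off histone tails and other proteins, and such inhibitors raise acetylation and turn genes both up and down. Sorafenib inhibits several kinases, among them the RAF kinases above ERK and the receptors for VEGF and PDGF. Hodgkin lymphoma cells are known for constant NF-kB, JAK-STAT and AP-1 activity and for making many cytokines.

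The 6 arrays compared here did not look alike in every respect. Combination B was the brightest before normalization, with a median raw intensity of 681.1 against 425.9 to 487.6 on the other 5, and had the fewest probes detected, 22.4% against 24.6% to 30.9%. Deviations of genes from the group mean spread most on combination B and A, with a standard deviation of 0.329 and 0.305 (log2) against 0.239 to 0.277 on the other 4. Normalized arrays correlated across genes at 0.976 to 0.983 within sorafenib, 0.965 to 0.977 within the combination and 0.956 to 0.979 between the groups. Levels below are normalized log2 intensities of 1 probe per gene, always in the order A, B, C, and are not compared between genes. Since each array holds bulk RNA, fewer cells of a type and less RNA per cell cannot be told apart.

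With givinostat on top of sorafenib, 29 genes changed (0.359% of the genes tested, limma, adjusted p under 0.05): 15 rose (0.186%) and 14 fell (0.173%). The lamellipodin gene RAPH1, the integrin chain ITGB1, the semaphorin SEMA6A, the ETS factor ETV5, the cytokine IL22 and the methionine salvage enzyme MTAP were among those that rose. The stress factor ATF5, the calcium binder S100P, the integrin chain ITGAL and the phosphatase PTPN7 were among those that fell. The log2 difference was at least 1 in size for 12 of those that rose and 11 of those that fell. Of the 11, SBNO2, CPLANE2 and TMEM63A were undetected on all combination arrays. Against the detection limit they were at least 1.55-, 1.71- and 1.70-fold lower. In all 29 the 3 combination values lay entirely on 1 side of the 3 sorafenib values, which held for 1619 of the 8079 genes (20.0%). A further measure of the background is that 1236 of the 7629 genes had an unadjusted p under 0.05, of which 573 were higher and 663 lower, and that the median log2 difference over all of them was -0.03.

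The count moved with the arrays in the fit. Without combination B, sorafenib A or sorafenib C limma called 0 genes, with 890, 1162 and 1059 genes at an unadjusted p under 0.05. It called 8 without sorafenib B, 36 without combination A and 21 without combination C. Without control A, B or C, which enter through the shared estimate of the spread, it called 10, 14 and 16, and without givinostat A, B or C 30, 28 and 13. The direction of all 29 genes held in every one of these fits, which their lack of overlap between the groups fixed in advance. Without combination B their adjusted p lay between 0.0738 and 0.127. Scaling each array to its median in place of quantile normalization gave 14 genes, 5 higher and 9 lower, around a median log2 difference of -0.32 over all genes.

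**Figure D1:**
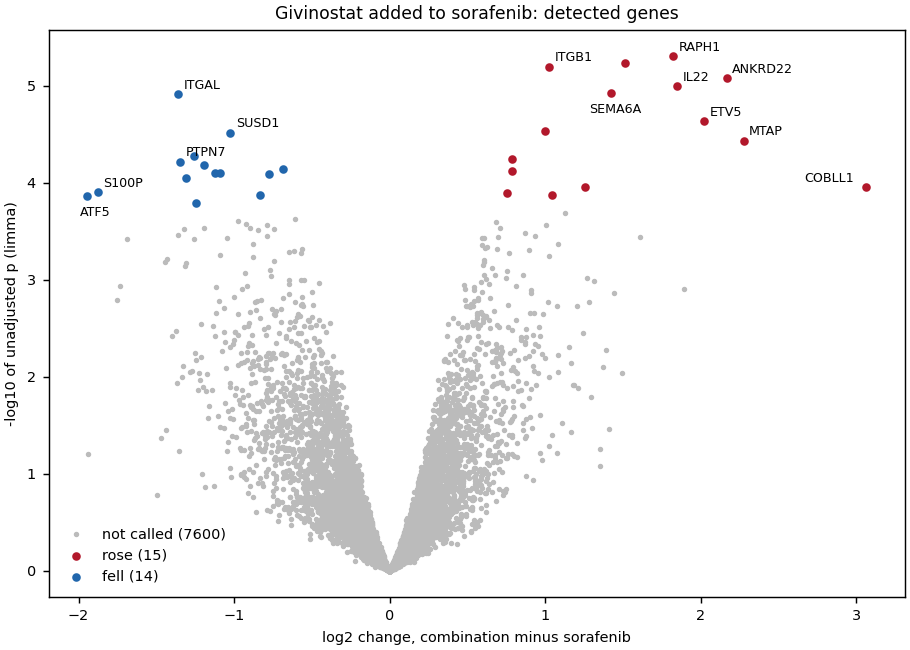
Each point is 1 of the 7629 genes, with the log2 difference of combination minus sorafenib on the horizontal axis and the -log10 of limma's unadjusted p on the vertical axis. The 15 genes that rose are red, the 14 that fell are blue, and the 7600 others are grey; COBLL1 lies furthest right at 3.06 and ATF5 furthest left among the called genes at -1.94.

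Promoter sequences of 5 of the changed genes are shown here because they carry the ends of the response: RAPH1, ITGB1 and ANKRD22 rose with givinostat both with and without sorafenib, and ATF5 and S100P had the deepest falls. Each runs from 250 bases before to 50 bases after the start of the gene, 5′ to 3′ on the gene's own strand, from RefSeq on GRCh38.p14. The positions are chr2:203535252-203535551 (minus strand) for RAPH1, chr10:32958181-32958480 (minus) for ITGB1, chr10:88851795-88852094 (minus) for ANKRD22, chr19:49928656-49928955 (plus) for ATF5 and chr4:6693628-6693927 (plus) for S100P. Capitals mark 3 motifs read on both strands: the GC box GGGCGG, the AP-1 element TGANTCA and the ATF4 and C/EBP composite element TGATGNAA.
RAPH1: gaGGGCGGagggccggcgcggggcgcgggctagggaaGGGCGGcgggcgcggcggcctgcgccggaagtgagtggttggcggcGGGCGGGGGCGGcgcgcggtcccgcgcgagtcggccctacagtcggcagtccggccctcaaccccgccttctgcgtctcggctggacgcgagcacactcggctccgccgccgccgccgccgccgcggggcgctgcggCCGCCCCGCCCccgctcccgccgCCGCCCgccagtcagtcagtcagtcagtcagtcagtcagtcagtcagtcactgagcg
ITGB1: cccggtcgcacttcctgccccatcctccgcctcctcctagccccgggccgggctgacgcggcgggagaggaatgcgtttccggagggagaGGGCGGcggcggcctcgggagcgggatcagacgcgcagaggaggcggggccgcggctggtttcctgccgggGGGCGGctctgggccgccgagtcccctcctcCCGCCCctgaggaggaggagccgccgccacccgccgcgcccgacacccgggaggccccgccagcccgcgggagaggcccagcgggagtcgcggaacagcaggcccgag
ANKRD22: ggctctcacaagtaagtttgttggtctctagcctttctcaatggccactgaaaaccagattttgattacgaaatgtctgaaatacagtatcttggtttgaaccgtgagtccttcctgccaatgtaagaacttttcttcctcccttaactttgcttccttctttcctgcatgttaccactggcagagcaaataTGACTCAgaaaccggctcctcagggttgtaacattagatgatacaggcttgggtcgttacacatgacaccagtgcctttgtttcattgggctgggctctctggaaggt
ATF5: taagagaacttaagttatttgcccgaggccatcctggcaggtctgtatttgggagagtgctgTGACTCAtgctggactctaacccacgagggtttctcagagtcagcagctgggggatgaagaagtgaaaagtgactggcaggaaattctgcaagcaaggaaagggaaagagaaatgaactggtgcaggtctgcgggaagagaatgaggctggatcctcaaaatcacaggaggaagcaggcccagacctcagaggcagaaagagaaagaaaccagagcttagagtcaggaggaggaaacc
S100P: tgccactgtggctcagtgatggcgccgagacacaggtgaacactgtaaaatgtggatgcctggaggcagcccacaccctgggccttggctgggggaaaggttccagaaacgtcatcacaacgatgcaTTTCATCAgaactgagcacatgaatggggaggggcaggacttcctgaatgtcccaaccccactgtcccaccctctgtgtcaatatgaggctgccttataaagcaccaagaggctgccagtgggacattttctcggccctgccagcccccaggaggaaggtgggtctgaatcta

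RAPH1 and ITGB1 have promoters of 79.0% and 78.3% G and C, with 7 and 3 GC boxes. ANKRD22 and ATF5 have 44.7% and 50.3%, no GC box and 1 AP-1 element each. S100P has 56.0%, no GC box, 1 composite element and 1 TATA box (TATAAA, left in lower case). No base of these 5 sequences lies in motifs of different kinds, but neighbouring GC boxes of RAPH1 (CCGCCCCGCCC) share a base. A match is a description of the letters, not a binding site. RefSeq promoters were matched for 12 of the 15 genes that rose, 10 of the 14 that fell and 6336 of the 7629 genes. A GC box was present in 10 of the 12, 4 of the 10, 71.0% of the 6336 and 44.6% of all 27305 promoters in the table. The AP-1 element was present in 2 of the 12 and 2 of the 10, against 4.23% of the 6336 and 7.76% of all promoters, and the composite element in 0 of the 12 and 1 of the 10, against 1.83% and 3.67%. Median G and C content was 74.3% for the genes that rose, 65.2% for those that fell and 65.0% for the 6336.

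Among genes of cell shape and adhesion, RAPH1 had the smallest p of the whole comparison. It encodes lamellipodin, which brings Ena and VASP proteins to the leading edge of moving cells. Its levels were 8.31, 8.51 and 7.88 on the sorafenib arrays and 9.68, 10.27 and 10.22 on the combination arrays, so the lowest combination value stood more than 1 log2 unit above the highest sorafenib value. RAPH1 rose by 1.82 ± 0.22 on the log2 scale (SE, n = 3 arrays per group, 3.54-fold, limma adjusted p = 0.014), and was still called in 9 of the 12 fits that left out 1 array. ITGB1, the beta-1 chain shared by many integrins, stood at 11.36, 11.55 and 11.37 with sorafenib and at 12.28, 12.48 and 12.59 in the combination. The groups did not overlap, and each was tight. ITGB1 rose by 1.02 ± 0.13 (2.03-fold, adjusted p = 0.014), and its second detected probe differed by 0.68 in the same direction.

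ITGAL went the other way. It encodes the alpha-L chain that pairs with ITGB2 to form LFA-1, the main adhesion receptor of lymphocytes for ICAM1. Levels were 8.31, 8.27 and 8.34 with sorafenib and 7.15, 6.76 and 6.93 in the combination, where 2 of the 3 arrays detected it. ITGAL fell by 1.36 on the log2 scale (SE 0.18, 2.57-fold lower, adjusted p = 0.014). It entered the test through the sorafenib group alone, where it is highest, so the detection rule itself leans towards a fall. Control and givinostat arrays, none of which detected it, lay between 5.79 and 6.53, so the combination level stood between these and sorafenib. The measured group means were 6.12 in control, 8.31 with sorafenib and 6.95 in the combination, with adjusted p-values against control of 0.000431 for sorafenib and 0.0243 for the combination. These tests share the sorafenib or combination arrays with the comparison above.

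Over the list of integrins and adhesion genes, 18 of 29 listed were measured: 2 rose, 1 fell and 15 did not pass. The list median was 0.18 against -0.03 for all 7629 genes, and the unadjusted p was under 0.05 for 7 higher genes and 2 lower ones. Array medians, as deviations from the sorafenib mean, were 0.16, 0.24 and 0.30 in the combination and -0.04, 0.05 and -0.02 in sorafenib, without overlap. Sorafenib is centred near 0 by this choice of deviation. Members that did not pass, chosen after their values were seen, include the fibronectin receptor chain ITGA5 (0.78, adjusted p = 0.257), the surface glycoprotein gene CD99 (0.72, adjusted p = 0.155) and the alpha-E chain ITGAE (-0.81, adjusted p = 0.177).

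COBLL1 had the highest log2 difference of the 7629 genes. It encodes a relative of the actin-nucleating protein cordon-bleu. On sorafenib arrays it stood at 6.23, 6.90 and 6.33, detected on 1 of the 3, and in the combination at 8.41, 10.25 and 9.98. Combination A was well below the other 2, though still above every sorafenib array. COBLL1 rose by 3.06 ± 0.53 (8.35-fold, adjusted p = 0.0391). The difference was 2.71 without combination B (adjusted p = 0.124) and 1.23 without background correction (adjusted p = 0.0163). CTNNAL1, which encodes the catenin relative alpha-catulin, rose by 0.75 ± 0.13 (adjusted p = 0.0397), but a second, dimmer probe of the gene, detected on all 6 arrays, differed by -0.09.

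SEMA6A, PTCH1, EFR3B, SCARB2 and ELAPOR2 were also called. SEMA6A, a transmembrane semaphorin that binds A-type plexins, stood at 8.88, 8.51 and 8.30 with sorafenib and at 9.81, 10.05 and 10.11 in the combination. It rose by 1.42 ± 0.19 (2.68-fold, adjusted p = 0.014), with all 3 combination arrays above all 3 sorafenib arrays. PTCH1, the receptor that holds the hedgehog pathway off until its ligand binds, stood at 7.08, 7.29 and 6.89 against 8.05, 8.47 and 7.88. PTCH1 rose by 1.04 ± 0.18 (2.06-fold, adjusted p = 0.0397), but without background correction its difference was 0.32 (adjusted p = 0.0889). EFR3B, which anchors a phosphatidylinositol 4-kinase at the plasma membrane, rose by 1.00 ± 0.15 (2.00-fold, adjusted p = 0.0245), from 10.24, 10.64 and 10.47 to 11.59, 11.34 and 11.42. SCARB2, the lysosomal membrane protein that carries glucocerebrosidase, rose by 0.79 ± 0.13 (adjusted p = 0.0327), and ELAPOR2, a relative of the endosome and lysosome protein ELAPOR1, by 1.26 ± 0.22 (adjusted p = 0.0391). The smallest of these shifts lay under 1 log2 unit, yet in none of the 5 genes did the groups overlap.

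**Figure D2:**
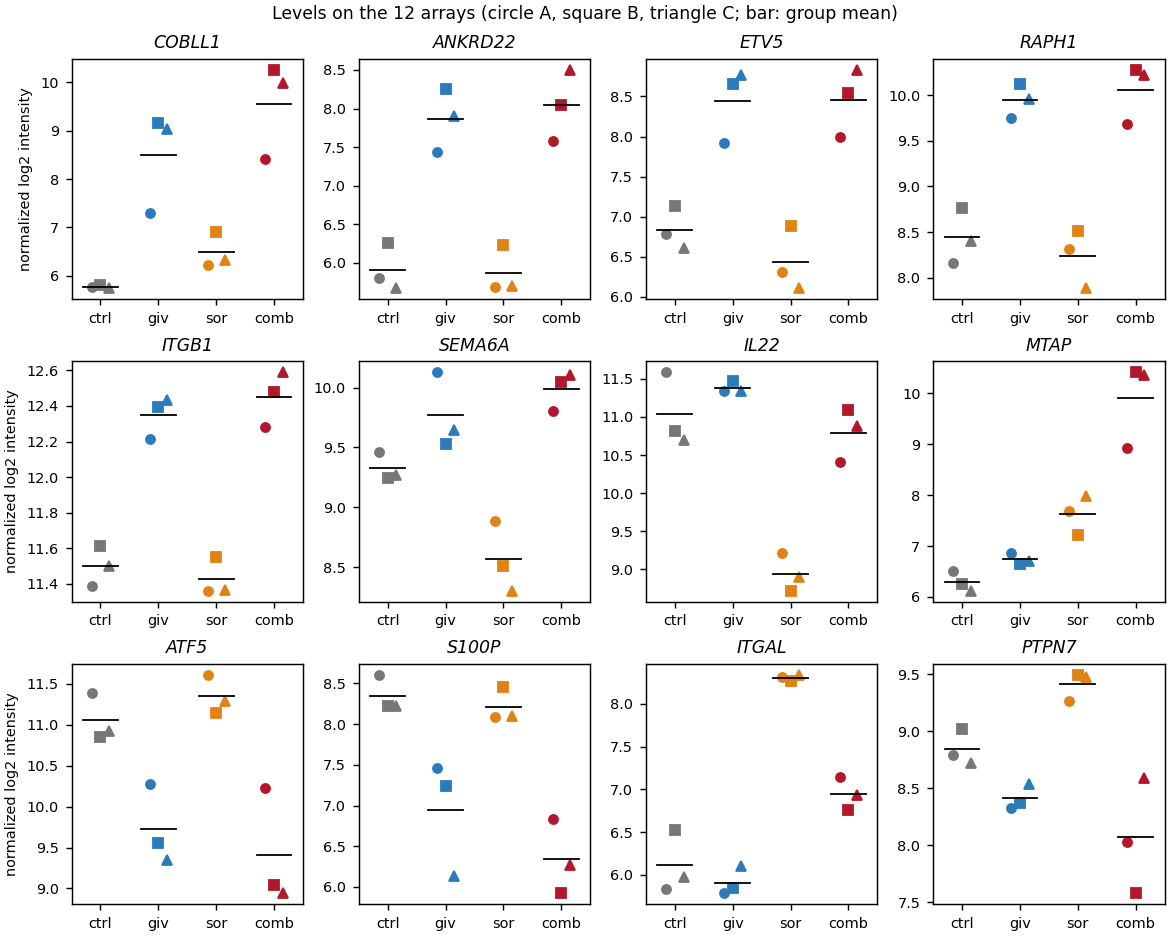
Normalized log2 intensity of 12 genes on all 12 arrays, by group (ctrl, control; giv, givinostat; sor, sorafenib; comb, combination), with 1 symbol per array letter and a bar at each group mean. The first 8 panels show genes that rose and the last 4 genes that fell; IL22 is lowest on the 3 sorafenib arrays (8.72 to 9.21) and ITGAL is highest there (8.27 to 8.34).

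In the ERK arm, ETV5 rose. It is an ETS factor of the PEA3 group whose transcription is driven by ERK signalling in many cells. Its levels were 6.31, 6.88 and 6.11 with sorafenib, where 1 of the 3 arrays detected it, and 7.99, 8.54 and 8.83 in the combination. ETV5 rose by 2.02 ± 0.29 (4.06-fold, adjusted p = 0.0233), while a dim second probe, detected on none of the 6 arrays, differed by 0.57. Without background correction ETV5 differed by 0.63 (adjusted p = 0.0169). Of the 23 listed ERK feedback and target genes 11 were measured: ETV5 rose, none fell and 10 did not pass, with a list median of 0.10. FOSL1, an AP-1 subunit under ERK control, lay the other way. Its levels were 7.33, 7.19 and 6.85 with sorafenib, and no combination array detected it, which makes it at least 1.13-fold lower (adjusted p = 0.226, not called). PTPN7, a phosphatase of blood cells that acts on ERK and p38, fell. It stood at 9.26, 9.50 and 9.48 with sorafenib against 8.03, 7.58 and 8.59 in the combination. PTPN7 fell by 1.35 on the log2 scale (SE 0.22, 2.54-fold lower, adjusted p = 0.0327), and by 1.10 without combination B (adjusted p = 0.0962).

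Among the cytokine genes IL22 was called. Interleukin-22 is made by T helper and innate lymphoid cells and acts through STAT3 on epithelial cells. IL22 stood at 9.21, 8.72 and 8.90 with sorafenib and at 10.41, 11.08 and 10.88 in the combination. It rose by 1.85 ± 0.24 (3.60-fold, adjusted p = 0.014), and a second probe, detected on all 12 arrays, differed by 1.21. Control arrays stood at 11.58, 10.82 and 10.70 and givinostat arrays at 11.35, 11.47 and 11.34, so sorafenib was the low group of the 4. Sorafenib differed from control by -2.09 ± 0.24 (adjusted p = 0.00323) and the combination by -0.24 ± 0.24 (adjusted p = 0.585). Both share arrays with the comparison above. Of the 33 listed cytokines, chemokines and receptors 14 were measured, 1 rose and 13 did not pass, with a median of -0.06. Those that did not pass included, chosen after their values were seen, the T cell ligand gene TNFSF14 (-0.93, adjusted p = 0.24) and the interleukin-7 receptor gene IL7R (0.71, adjusted p = 0.156).

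MTAP encodes the first enzyme of methionine salvage, which splits methylthioadenosine left over from polyamine synthesis. Its probe was detected on all 3 sorafenib arrays, at 7.69, 7.21 and 7.98, and stood at 8.93, 10.41 and 10.36 in the combination. Combination A was the lowest of its group, as for COBLL1. MTAP rose by 2.28 ± 0.34 (4.85-fold, adjusted p = 0.0271), and the difference was 2.02 without combination B (adjusted p = 0.106). Without background correction MTAP differed by 1.13 (adjusted p = 0.00982). No control array and 2 of the 3 givinostat arrays detected it, at levels of 6.12 to 6.87 over both groups. No other gene of its list passed: of 15 measured methionine salvage and polyamine genes out of 18 listed, 1 rose and 14 did not pass, with a median of 0.04.

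Of the remaining genes that rose, ANKRD22 went from undetected to detected. Of the 7629 genes 10 were detected on no sorafenib array, and the detection rule then requires all 3 combination arrays. ANKRD22 encodes an ankyrin repeat protein. Its probe was detected on none of the sorafenib arrays (5.69, 6.23 and 5.69) and on all 3 combination arrays (7.58, 8.04 and 8.50), which makes it at least 2.37-fold higher (adjusted p = 0.014). Without background correction its log2 difference was 0.65 (adjusted p = 0.0107). Both other probes of ANKRD22 were dim, 1 detected on 1 of the 6 arrays with a difference of -0.11 and the other on 1 with 0.78. ATP2B1-AS1, a long noncoding RNA antisense to a plasma membrane calcium pump gene, stood at 9.03, 9.14 and 9.35 against 10.53, 10.88 and 10.64. It rose by 1.51 ± 0.19 (2.85-fold, adjusted p = 0.014), with more than 1 log2 unit between the groups. TTC39C, a tetratricopeptide repeat gene, rose by 0.79 ± 0.12 (adjusted p = 0.0327).

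ATF5 headed the genes that fell. It is a leucine zipper factor of the integrated stress response and of the mitochondrial unfolded protein response. Its levels were 11.61, 11.14 and 11.29 with sorafenib and 10.23, 9.04 and 8.94 in the combination, again with combination A nearest to sorafenib. ATF5 fell by 1.94 on the log2 scale (SE 0.34, 3.84-fold lower, adjusted p = 0.0397). It was called in 2 of the 12 fits that left out 1 array, with log2 differences from -2.36 to -1.71. ATF4 itself, the central factor of that response, did not pass (-0.21 ± 0.21, adjusted p = 0.679), nor did DDIT3, which encodes CHOP (0.34 ± 0.32, adjusted p = 0.662). Over the ATF4 list, 25 of 32 genes were measured, 1 fell and 24 did not pass, 17 were negative and the median was -0.17. Of the aminoacyl-tRNA synthetases, which charge tRNAs and include many ATF4 targets, 16 of 18 were measured and none passed limma's test. A lower value was seen for 14 of the 16, with a median of -0.13, and 1 had an unadjusted p under 0.05: MARS1 at -0.41 (adjusted p = 0.249).

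S100P, a small calcium-binding protein, was detected on all sorafenib arrays (8.09, 8.46 and 8.10) and on none of the combination arrays (6.83, 5.93 and 6.27). It was at least 2.42-fold lower (adjusted p = 0.0397). Without background correction its log2 difference was -0.55 (adjusted p = 0.0244). A further 3 genes went from detected on all 3 sorafenib arrays to none in the combination. The detection rule fixes the first part: a gene undetected throughout the combination was taken only if all 3 sorafenib arrays detected it. Of the 7629 genes 50 were undetected on all combination arrays, and of the 29 changed genes 4. SBNO2, a helicase-related co-repressor, was at least 1.55-fold lower (adjusted p = 0.0327). CPLANE2, a small GTPase relative needed for cilia, was at least 1.71-fold lower (adjusted p = 0.0327). It entered the test through the sorafenib group alone, where it is highest. TMEM63A, a mechanically gated ion channel, was at least 1.70-fold lower (adjusted p = 0.0449). With combination B as the array with the fewest probes detected, the part of the detection limit in these counts was not tested. The detection limits of combination A, B and C were 6.86, 7.21 and 6.76. Levels on these arrays were 6.29, 6.53 and 6.61 for SBNO2, 6.61, 6.73 and 6.04 for CPLANE2, and 6.21, 6.49 and 6.69 for TMEM63A.

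The other genes that fell belong to metabolism, protein folding or less known families. SLC5A6, the carrier of biotin and pantothenate, fell by 0.83 (SE 0.15, adjusted p = 0.0397), from 12.03, 12.28 and 12.44 to 11.28, 11.46 and 11.51. FDX2, a mitochondrial ferredoxin for iron-sulphur clusters, fell by 0.77 (SE 0.13, adjusted p = 0.0327) and METTL1, a methyltransferase that places 7-methylguanosine in tRNA, by 0.69 (SE 0.11, adjusted p = 0.0327). These 3 probes were detected on all 12 arrays, and their groups stood apart. SLC5A6 and TMEM63A kept the call in 0 of the 12 fits that left out 1 array. SERPINH1, the collagen chaperone HSP47, stood at 8.09, 7.77 and 7.93 against 6.89, 6.46 and 7.07, where 2 of 3 combination arrays detected it, and fell by 1.12 (SE 0.19, adjusted p = 0.0327). SUSD1, a sushi domain gene, fell by 1.02 (SE 0.15, adjusted p = 0.0245) and was detected on 1 of 3 combination arrays. The zinc finger gene ZNF696 fell by 1.31 (SE 0.22, adjusted p = 0.0338) and C8orf82 by 1.19 (SE 0.19, adjusted p = 0.0327). Without background correction 5 of the genes that fell were no longer called: SBNO2 (-0.29, adjusted p = 0.12), CPLANE2 (-0.34, adjusted p = 0.0729), TMEM63A (-0.34, adjusted p = 0.0858), SERPINH1 (-0.32, adjusted p = 0.0838) and SUSD1 (-0.30, adjusted p = 0.0858).

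The control and givinostat arrays, none of which entered the difference above, give the effect of givinostat on the same genes without sorafenib. All 29 genes had the same sign in givinostat minus control, and 20 of them an unadjusted p under 0.05 there, 12 of the 15 that rose and 8 of the 14 that fell. Of all 8079 genes, 1042 had an unadjusted p under 0.05 there, in either direction. The control and givinostat arrays entered the shared estimate of the spread behind the 29 calls, so the 20 are not an independent count. Over all 7629 genes the sign was shared by 4826 (63.3%), and over the 1236 genes at an unadjusted p under 0.05 by 971 (78.6%). Across the 7629 genes the log2 differences correlated at r = 0.435, a description over genes that share the arrays of each comparison. With givinostat alone 7 genes were called (0.0866%). The letters paired the control and givinostat arrays, and with the letter as a block 166 were called, among them 13 of the 29. That block was fitted over all 12 arrays, including the combination, whose letters were not taken to pair with sorafenib. With no block, the count of 7 became 76 without background correction and 0 to 21 when 1 array was left out. It was 0 by limma without givinostat B or givinostat C (711 and 949 at an unadjusted p under 0.05) and 21 without givinostat A. At the reported setting RAPH1 (1.5 ± 0.22), ITGB1 (0.85 ± 0.13) and ANKRD22 (at least 2.11-fold higher) were called with and without sorafenib, each with an adjusted p of 0.0466 without sorafenib. The other 4 of the 7 were not called with sorafenib. They were ANKRD29 (1.13, adjusted p = 0.0546), DNLZ (-0.90, adjusted p = 0.0574), STAT4 (0.48, adjusted p = 0.217) and IRAG2 (0.04, adjusted p = 0.912).

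The change was smaller without sorafenib for 28 of the 29 genes, with a median absolute log2 difference of 0.65 against 1.26, but the genes had been called on the value with sorafenib. ELAPOR2 was the exception, at 1.35 without and 1.26 with sorafenib. COBLL1, which no control array detected, was at least 3.26-fold higher without sorafenib, and ETV5 stood at 1.61 without and 2.02 with sorafenib. IL22 was further apart, at 0.35 without sorafenib against 1.85 with it. ITGAL was detected on none of the 6 arrays without sorafenib, so its measured difference of -0.20 there has no fold.

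**Figure D3:**
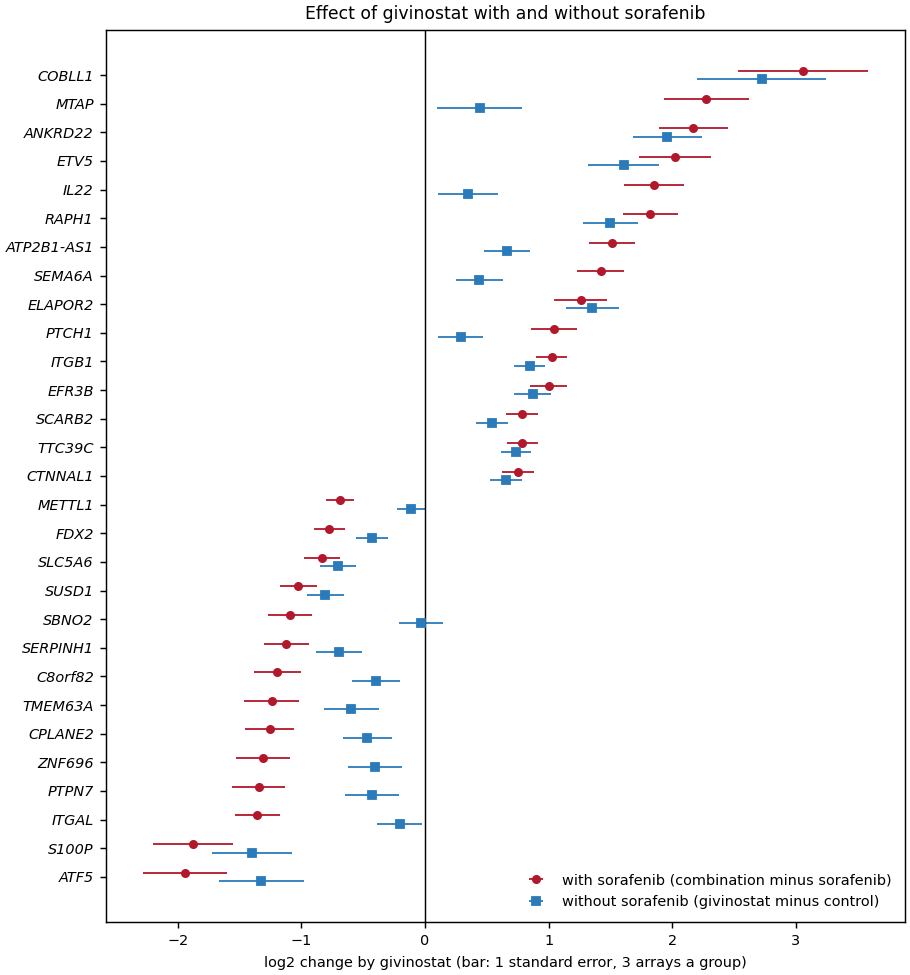
Log2 difference by givinostat for the 29 changed genes, with sorafenib (red circles, combination minus sorafenib) and without it (blue squares, givinostat minus control); bars are 1 standard error from 3 arrays per group. All blue squares lie on the same side of 0 as the red circle of their gene, and 28 of them lie nearer to 0.

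The test of this gap itself, the effect of givinostat with sorafenib minus the effect without, called no gene (0% of 8079, limma), and 473 genes had an unadjusted p under 0.05. Among the 29 changed genes 12 had an unadjusted p under 0.05, with adjusted p from 0.647 upward. The 29, IL22 among them, had been called on the difference with sorafenib. That difference is part of the gap, so a larger share among them can follow from the choice alone. For IL22, detected on all 12 arrays, the gap was 1.5 ± 0.34 (adjusted p = 0.69). The 3 genes with the smallest p of the gap in each direction were not among the 29. PPP2R5B, a regulatory subunit of protein phosphatase 2A, differed by 0.48 with and -0.96 without sorafenib (gap 1.44 ± 0.25, adjusted p = 0.623). GRIPAP1, a protein of recycling endosomes, differed by 0.46 and -0.45, and the pseudogene SDHAP1 by 0.52 and -0.29. In the other direction, SYVN1, a ubiquitin ligase of the endoplasmic reticulum, differed by -0.16 with and 0.93 without sorafenib, and GIN1 by -0.39 and 1.17. ADNP, a homeodomain chromatin protein, was detected on all sorafenib arrays (7.47, 7.75 and 8.15) and on no combination array, at least 1.80-fold lower (adjusted p = 0.0713), while without sorafenib its difference was 0.85.

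By gene group, 37 lists were followed, which together hold 534 of the 7629 genes and 7 of the 29 that changed. The other 22 changed genes are in no list. A changed gene was found in 5 lists, those of adhesion, ERK targets, cytokines, methionine salvage and ATF4 given above, and 32 lists had none. The paragraphs that follow describe those lists by their medians and counts, beside the median of -0.03 over all genes. No member named in them passed limma's test. Their counts at an unadjusted p under 0.05 stand beside 1236 of all 7629 genes at that level, 573 higher and 663 lower.

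**Figure D4:**
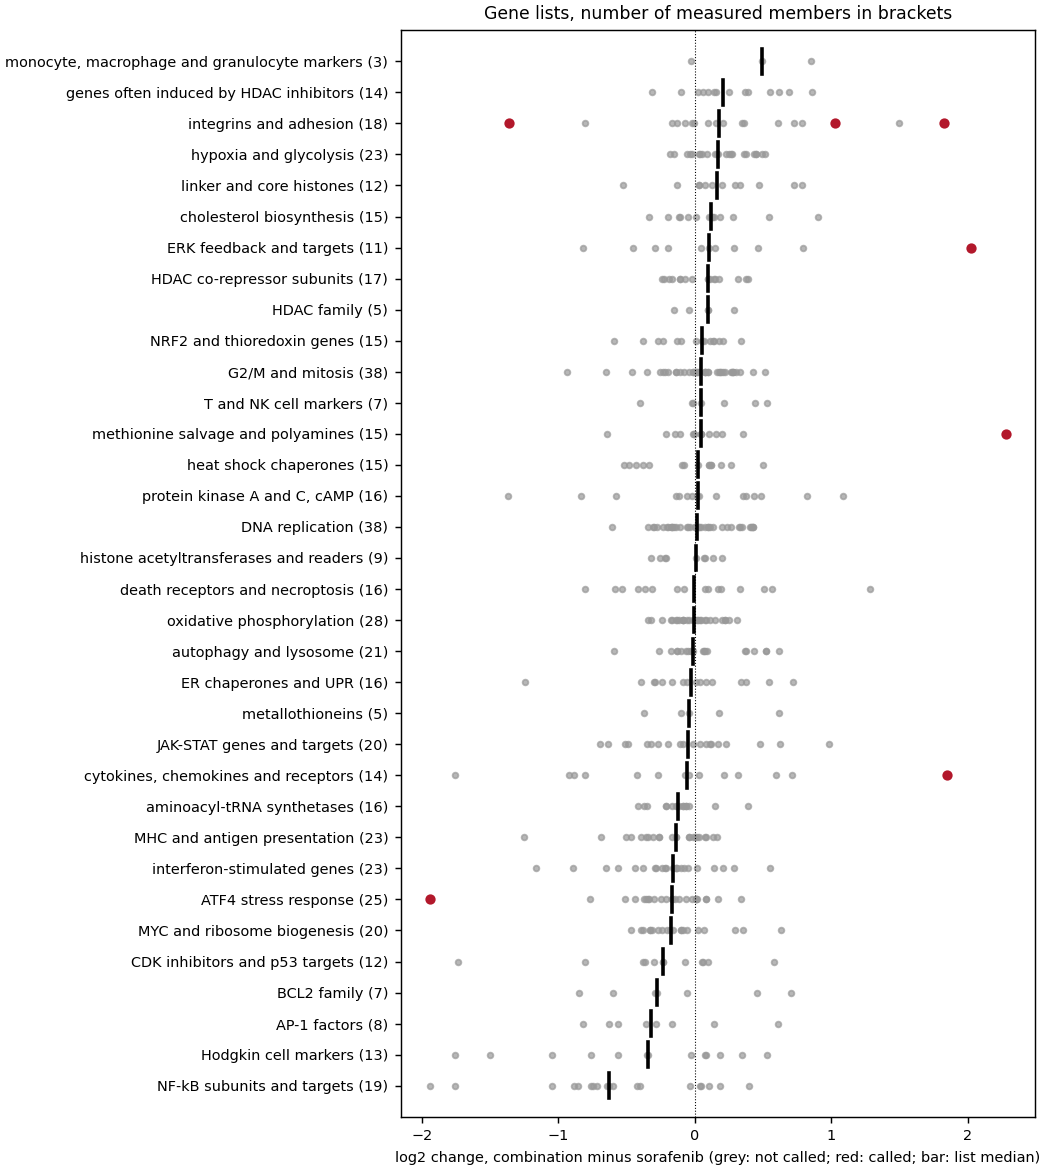
Log2 difference of combination minus sorafenib for the measured members of each list with 3 or more of them, with the number in brackets; grey points did not pass, red points are called genes and black bars are list medians. The NF-kB list has the lowest median (-0.63), and called genes stand in 5 lists.

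NF-kB subunits and targets had the lowest list median, -0.63. Of 29 listed, 19 were measured, none passed, 14 were negative, and 7 had an unadjusted p under 0.05, all of them lower. LTA, the lymphotoxin cytokine that NF-kB induces, stood at 11.02, 10.30 and 10.92 with sorafenib and at 9.83, 8.40 and 8.74 in the combination (-1.75 ± 0.42, adjusted p = 0.108). CCL5, a chemokine for T cells, stood at 13.91, 13.41 and 13.88 against 13.40, 12.55 and 12.60 (-0.89 ± 0.27, adjusted p = 0.163). By array the medians were 0.38, -0.27 and -0.22 in sorafenib and 0.18, -0.82 and -0.52 in the combination. Each combination array lay below the sorafenib array of its letter, while combination A lay above sorafenib B and C. The letters were not taken to pair sorafenib with the combination, and without pairing these groups overlap. The medians were 0.33, -0.21 and -0.17 in control and 0.01, -0.74 and -0.48 with givinostat alone, again lower within each letter, and the letter A array was the highest in all 4 groups. Without sorafenib the list median was -0.27, with 15 of 19 negative.

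AP-1 factors followed the same arrays. Of 13 listed, 8 were measured, none passed and 6 were negative, with a median of -0.32 and an unadjusted p under 0.05 for 1 higher and 2 lower genes. The array medians were 0.20, -0.15 and -0.12 in sorafenib and 0.01, -0.52 and -0.45 in the combination. JUN, a core subunit, was on the positive side (0.61 ± 0.22, adjusted p = 0.229). Of the JAK-STAT genes and targets 20 of 30 were measured and none passed, with a median of -0.05 and an unadjusted p under 0.05 for 2 higher and 2 lower genes. Its members with the smallest p were the cytokine gene OSM (-0.70 ± 0.18, adjusted p = 0.121) and the kinase gene PIM1 (0.62 ± 0.21, adjusted p = 0.205).

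**Figure D5:**
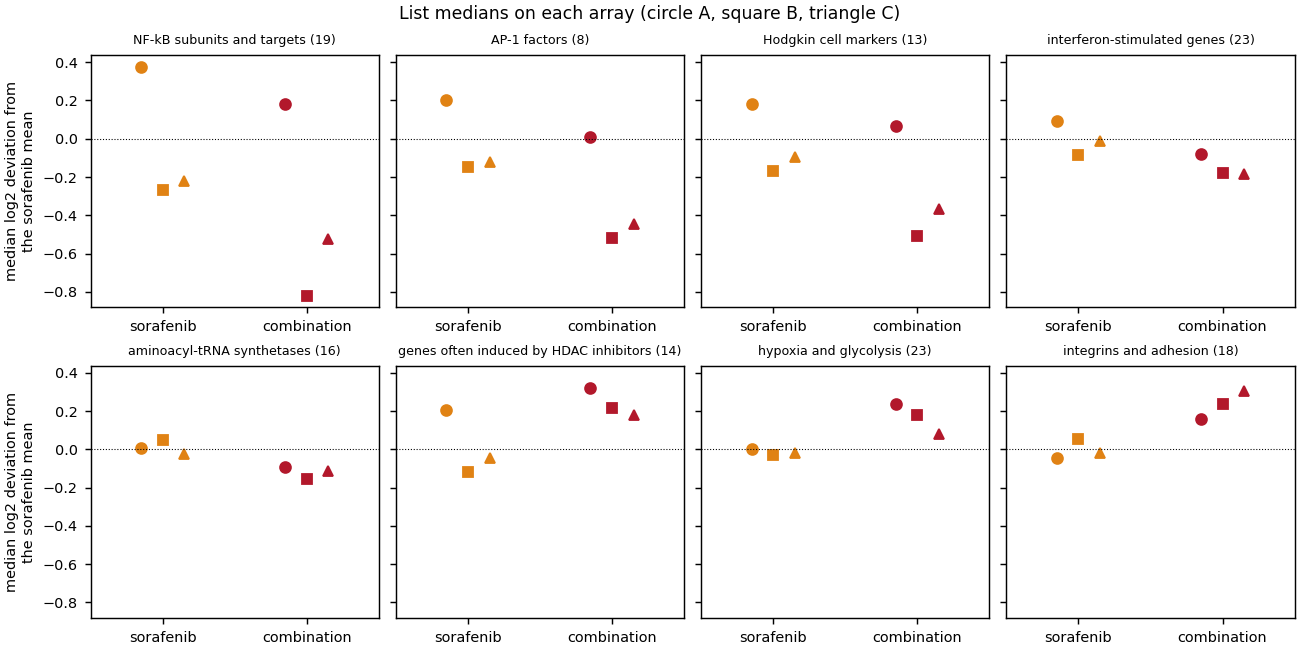
Median of each of 8 lists on the 3 sorafenib (orange) and 3 combination (red) arrays, as log2 deviations from the sorafenib mean of each gene; circles, squares and triangles are letters A, B and C. In the NF-kB panel combination A (0.18) lies above sorafenib B and C (-0.27 and -0.22). In the panels of synthetases, glycolysis and adhesion the groups do not overlap, nor do they in the ATF4 and MHC lists, not shown. The sorafenib arrays are centred near 0 by this choice of deviation, and the combination arrays are not.

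Immune recognition genes lay mostly below 0, without a call. Of the interferon-stimulated genes 23 of 36 were measured and none passed. Values were negative for 18 of the 23, with a median of -0.16, and the unadjusted p was under 0.05 for 5 lower genes and 1 higher one. The lowest p belonged to IFI35, an interferon-induced leucine zipper protein (-0.56 ± 0.13, adjusted p = 0.107), and GBP2, a guanylate-binding protein, lay on the other side (0.55 ± 0.17, adjusted p = 0.16). Of the MHC and antigen presentation genes 23 of 28 were measured and none passed, 16 were negative, the median was -0.14, and 5 were lower at an unadjusted p under 0.05. CIITA, the master activator of MHC class II genes, stood at 7.74, 7.75 and 7.78 with sorafenib. In the combination it stood at 6.00, 6.69 and 6.84, detected on 1 of the 3 arrays (-1.25 ± 0.37, adjusted p = 0.156). HLA-DOA, a class II chain of the peptide exchange machinery, differed by -0.50 ± 0.16 (adjusted p = 0.18).

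The genes of givinostat's own targets had no call. Of 11 histone deacetylase genes 5 were measured and none passed, with a median of 0.09 and 0 at an unadjusted p under 0.05. HDAC1 differed by 0.09 ± 0.13, HDAC2 by 0.10 ± 0.27, HDAC3 by 0.29 ± 0.17 and HDAC6 by -0.15 ± 0.16, with adjusted p between 0.431 and 0.896. Subunits of the co-repressor complexes (17 of 26 measured, median 0.10) and the acetyltransferases and acetyl-lysine readers (9 of 15 measured, median 0.01) had no called gene either. Of the genes often induced by histone deacetylase inhibitors 14 of 22 were measured and none passed, while 12 were positive, 3 of them at an unadjusted p under 0.05, with a median of 0.20. ITM2B, a membrane protein of this list, differed by 0.69 ± 0.19 (adjusted p = 0.143) and the metallothionein gene MT2A by 0.62 ± 0.18 (adjusted p = 0.156). CDKN1A, the p21 cell cycle inhibitor often raised by this drug class, differed by 0.10 ± 0.20 (adjusted p = 0.866). It stood at 14.18, 13.94 and 13.92 against 14.25, 13.96 and 14.12, and the groups overlapped. Linker and core histone genes were positive in 10 of 12 measured, with a median of 0.16 and none called, 2 of them higher at an unadjusted p under 0.05. H1-2 among them differed by 0.78 ± 0.24 (adjusted p = 0.177).

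Death and survival genes gave no call at the reported setting. BAD, a BH3-only promoter of cell death, came nearest among the 7 measured of 18 BCL2 family genes. Its levels were 10.86, 10.70 and 11.08 with sorafenib and 10.18, 9.82 and 10.10 in the combination (-0.85 ± 0.16, adjusted p = 0.0574). BAD was called without background correction (-0.63, adjusted p = 0.0128). MCL1, a survival member, stood at 9.52, 9.86 and 9.79 against 9.74, 9.31 and 8.34 (-0.60 ± 0.31, adjusted p = 0.387), and combination C was the lowest, with combination B also below all 3 sorafenib arrays. The list median was -0.28, and BAD alone had an unadjusted p under 0.05. Of the death receptor and necroptosis genes 16 of 25 were measured, with a median of 0.00 and an unadjusted p under 0.05 for 2 higher and 2 lower genes. TNFRSF21, the death receptor DR6, stood at 8.53, 9.20 and 9.34 against 10.00, 10.38 and 10.55 (1.28 ± 0.31, adjusted p = 0.108), and it was called without background correction (0.80, adjusted p = 0.0107). FAS, another death receptor, stood at 8.11, 7.51 and 7.81 against 6.95, 6.81 and 7.25, detected on 2 of 3 combination arrays (-0.80 ± 0.21, adjusted p = 0.123). The necroptosis kinase gene RIPK3 differed by 0.50 ± 0.26 (adjusted p = 0.373) and its substrate MLKL by -0.13 ± 0.33 (adjusted p = 0.889). TP53I3, a p53 target, was detected on all sorafenib arrays and on no combination array, at least 2.25-fold lower (adjusted p = 0.0941). Neither BCL2L11 nor TXNIP had a probe that met the detection rule.

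Of the cell cycle lists, the DNA replication genes (38 of 41 measured, median 0.01) and the G2/M genes (38 of 42, median 0.05) had no called member. The unadjusted p was under 0.05 for 4 higher genes and 1 lower gene of replication. In the G2/M list it was under 0.05 for 1 higher gene and 3 lower ones. TK1, thymidine kinase, differed by 0.42 ± 0.14 (adjusted p = 0.192). Of the G2/M genes PRC1, a protein of the central spindle, differed by 0.42 ± 0.12 (adjusted p = 0.155) and CDC25B by -0.35 ± 0.12 (adjusted p = 0.2). MYC stood at 13.38, 13.71 and 13.55 against 13.66, 13.69 and 13.37 (0.02 ± 0.14, adjusted p = 0.96). The MYC and ribosome biogenesis list had a median of -0.17, with 15 of 20 negative, but without combination A it lay 0.02 above the median of all genes. Hypoxia and glycolysis genes were positive in 18 of 23 measured, with a median of 0.17 and none called, 4 of them higher at an unadjusted p under 0.05. ALDOA and PKM, glycolytic enzymes, differed by 0.43 ± 0.16 (adjusted p = 0.231) and 0.45 ± 0.18 (adjusted p = 0.268). Without sorafenib that list had a median of -0.13, with 8 of 23 positive. The array medians of glycolysis were 0.24, 0.18 and 0.08 in the combination and 0.00, -0.03 and -0.02 in sorafenib, and 0.60 to 0.71 on the 6 arrays without sorafenib.

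The identity markers of the cells were measured beside these results. Of 18 Hodgkin cell markers 13 were measured. TNFRSF8, which encodes CD30, was detected on all arrays, at 9.31, 8.87 and 8.94 with sorafenib and at 9.58, 9.03 and 9.54 in the combination (0.34 ± 0.20, adjusted p = 0.438). The marker list had a median of -0.34, with none called, and without sorafenib A it lay 0.07 above the median of all genes. T and NK cell markers were measured for 7 of 26 genes, B cell markers for 2 of 16 and myeloid markers for 3 of 17, none of them called. No fibroblast, endothelial or epithelial marker out of 16 was measured. The T and NK list had array medians of 0.04, -0.19 and 0.03 in sorafenib and 0.28, -0.08 and 0.06 in the combination, which overlap. HBD, a globin chain and the 1 erythroid marker of 11 that was measured, stood at 6.07, 6.79 and 7.54, detected on 2 of 3 sorafenib arrays, against 7.71, 9.49 and 8.88 (1.89 ± 0.44, adjusted p = 0.0966). Without sorafenib it differed by 1.72.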

How the data were processed

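RNA of 12 L-540 samples was measured on Illumina bead arrays, 3 for each of 4 groups. Per the labels, total RNA was labelled as biotinylated cRNA, and the submitters' processing notes name BeadStudio without a version. The deposited raw table gives an average bead intensity for each probe and array, linear and not normalized between arrays. A fraction per probe and array, a detection p-value per the file headers, rose with intensity on all 12 arrays and was read as 1 minus that p. The deposited series matrix holds intensity values that the authors had brought to a common distribution, used as an alternative. Slides and scan dates are not given in the sources used here.

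Intensities were background corrected, quantile normalized and taken to log2 with neqc of limma 3.58.1 (R 4.3.3, offset 16). Of 48803 probes, 11801 were detected on all 3 arrays of at least 1 group and 10052 of these had 1 gene symbol in the platform annotation, which can be old. The brightest per gene gave 8079 genes. lmFit and eBayes ran over all 12 arrays with 1 coefficient per group (8 residual degrees of freedom), for 3 comparisons: combination minus sorafenib, givinostat minus control, and their difference. Benjamini-Hochberg adjusted p-values are limma's over all 8079 genes, and changed, rose and fell mean an adjusted p under 0.05. Folds are 2 to the power of the log2 difference. Where no array of 1 group detected a probe, the fold is a lower bound ("at least") against the detection limit of those arrays.

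The genes named are the 12 largest changes per direction among changed genes without overlap, up to 4 changed genes per list or else the 2 with the smallest p, 14 genes always given, and 3 per sign for the difference. CTNNAL1, SCARB2, TTC39C, FDX2 and METTL1 complete the 29 and fall outside it, and other genes named beyond it are marked. Members and lists were chosen with earlier results of these data known. Alternatives covered background correction, scaling, the authors' values, detection filters, arrays and probes used, array weights, a replicate block and each array left out. Arrays of the same letter had deviations from their group means that correlated at 0.371 (A), 0.347 (B) and 0.326 (C) between control and givinostat, which the letters of the labels were therefore taken to pair, and at 0.177 to 0.408 over the 9 same-letter pairs of control, givinostat and sorafenib.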

Additional observations from a re-analysis of the deposited data

How the results depend on the processing

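The count of 29 changed genes moved with the processing. Without background correction, and in the authors' series matrix, it was 97 (54 higher, 43 lower), of which 23 of the 29 were part, all but CPLANE2, PTCH1, SBNO2, SERPINH1, SUSD1 and TMEM63A. It was 47 (25 and 22) with normexp fitted without the detection values, 14 (5 and 9) with array median scaling, 8 (7 and 1) with no detection filter over 18852 genes, 45 (26 and 19) with detection p under 0.01 on all 12 arrays, and 44 probes (23 and 21) when every probe was tested. Fitted on the 6 arrays alone, with 4 residual degrees of freedom, limma called 0 genes, with 1018 at an unadjusted p under 0.05. Leaving out 1 array gave 0 to 36. Counts of 27, 30 and 38 came from cyclic loess, from detection in the compared groups only and from array weights. The 29 genes kept their direction under every alternative that measured them, of which the strict detection filter kept 15. With an array left out or weighted, their lack of overlap between the groups fixed this in advance. The difference of effects had 0 called genes under every alternative run for it. With 28 to 29 of the 29, the sign shared with givinostat alone held in the alternatives run for it. The letters were not taken to pair sorafenib with the combination: deviations of the same letter correlated at 0.321 (A), -0.107 (B) and 0.135 (C), and combination B correlated best with sorafenib C (0.158) and combination C with sorafenib B (0.234), although letters did correlate between the other 3 groups. Whether the letters B and C of the combination are exchanged was not tested. The replicate block gave 175 calls (97 and 78), including all 29. The causes of these shifts were not tested, except that fewer arrays or more genes enter some fits. Of the single-gene values recomputed, 1945 stayed on their side of the threshold, 302 lost and 31 gained a call, and 16 values that did not pass in either fit changed sign, while no called value did. With array median scaling, around -0.32 over all genes, these were CDKN1A (-0.16), EBF1 (-0.18), HDAC1 (-0.17), HDAC2 (-0.26), HDAC3 (-0.042), MTF1 (-0.19), MYC (-0.26), TNFRSF8 (-0.020) and TXN (-0.011). MYC was also negative with array weights (-0.071). Leaving out 1 array gave -0.061 to 0.12 for MYC (negative without sorafenib A, combination A or combination B), -0.11 to 0.30 for HDAC2 (negative without sorafenib A) and -0.50 to 0.30 for MLKL (positive without sorafenib C or combination A). Of the list medians, 758 stayed within the replicate spread and 69 moved. List medians relative to all genes kept their sign under every scaling and every compared array left out for the NF-kB, AP-1, interferon, MHC, ATF4, synthetase, glycolysis, histone, adhesion and inhibitor-induced lists. This was not particular to them: many other lists kept theirs, among them the histone deacetylase, co-repressor, cholesterol, G2/M, BCL2 and ERK target lists. Probes near the detection limit give the least precise values, and 50 of the 7629 genes were detected on no combination array and 10 on no sorafenib array.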

Other observations

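Some lists outside the comparisons above held members with an unadjusted p under 0.05, and none of these passed limma's test over all genes. Of the autophagy and lysosome genes 21 of 31 were measured, and 6 were higher and 0 lower at that level, with a median of -0.02. GLB1, the lysosomal beta-galactosidase, stood at 12.32, 12.28 and 12.60 with sorafenib and at 12.70, 13.24 and 13.11 in the combination (0.62 ± 0.16, adjusted p = 0.119). CTSB, the protease cathepsin B, stood at 10.91, 10.44 and 10.74 against 11.28, 11.22 and 11.14 (0.52 ± 0.17, adjusted p = 0.192). In both genes every combination array lay above every sorafenib array. Of the protein kinase A, protein kinase C and cAMP genes 16 of 26 were measured. PDE1B, a calmodulin-dependent phosphodiesterase, stood at 6.50, 7.39 and 7.01 (detected on 2 of 3) against 8.10, 8.25 and 7.80 (1.08 ± 0.22, adjusted p = 0.063). PRKCH, protein kinase C eta, was detected on all sorafenib arrays and on no combination array, at least 1.23-fold lower (adjusted p = 0.175).

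Chaperone genes were mixed. Of the heat shock chaperones 15 of 19 were measured, with an unadjusted p under 0.05 for 3 lower genes and 1 higher one. HSPH1, a nucleotide exchange factor of HSP70, differed by -0.52 ± 0.15 (adjusted p = 0.155) and the co-chaperone FKBP4 by 0.50 ± 0.17 (adjusted p = 0.2). Of the endoplasmic reticulum chaperones and unfolded protein response genes 16 of 23 were measured, 3 higher and 2 lower. HSPA5, the chaperone BiP, was read by a dim probe at 7.13, 8.38 and 8.03 against 6.95, 5.81 and 7.04, detected on 2 of 3 combination arrays (-1.25 ± 0.37, adjusted p = 0.159), while the disulphide isomerase PDIA6 differed by 0.54 ± 0.16 (adjusted p = 0.156). Among cholesterol genes, 15 of 23 measured with a median of 0.12, PMVK, a kinase of the mevalonate pathway, differed by 0.90 ± 0.27 (adjusted p = 0.158).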
